A study of Mus musculus with 6 samples.

Results

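The proteasome is the large protease that degrades proteins tagged with ubiquitin. The genes described are the subunits and activators whose symbols run from Psma, Psmb, Psmc and Psmd to Psme followed by a number, without the inducible subunits Psmb8 and Psmb9, with an average of 1 FPKM or more across the 6 libraries. FPKM is a level per length of gene and per library total. The name pattern matched 43 of the 46095 gene symbols, Psmb8 and Psmb9 were left out by name, and 2 more fell below the mean of 1 FPKM, which left 39 genes. Of these, 15 encode the core particle, 17 the regulatory particle, 3 its assembly chaperones and 4 other activators. Psma8, a testis subunit, averaged 0.544 FPKM and lay just outside the rule, and Psmb6, at 1.63 FPKM, lay just inside it. Psmb11, the thymus subunit, was listed at 0 in every library.

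The libraries came from liver of C57BL/6 mice, labelled as hepatocytes, after 26 weeks of high-fat diet, which both groups share. The titles of 3 libraries read HFD-WT (wild type) and those of 3 read HFD-ARRB1-KO, the knockout of ARRB1, which encodes the receptor adaptor beta-arrestin 1, and groups were taken from the titles. The genotype labels name ARRB1-/- for knockout replicate 1, ARRB2-/- for replicate 2 and ARRB3-/- for replicate 3, and how the allele was made, which cells it affects and the animals' sex and age at the start are not stated in the sources used here. Nothing says whether the replicates are separate animals, so the p-values refer to the spread among these libraries only, which may be technical.

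The core particle is a barrel of stacked rings, with outer rings of alpha subunits that gate the entry and inner rings of beta subunits, some of which cut the peptide chain. The regulatory particle sits on the end of the barrel. Its base unfolds the substrate with a ring of ATPases and binds ubiquitin, and its lid removes the ubiquitin chain. In liver the proteasome also turns over short-lived enzymes and apolipoprotein B, and NRF1, the product of Nfe2l1, is known to raise proteasome gene expression when proteasome activity is short.

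Estimated depth ran from about 13900000 fragments in knockout replicate 1 to about 35100000 fragments in knockout replicate 2, and values of the libraries are given in the order of the replicate numbers. Arrb1, the targeted gene, was at 3.86, 22.7 and 16.9 FPKM in the wild-type libraries against 0.918, 1.05 and 1.16 FPKM in the knockout libraries, with no overlap. Hepatocyte genes were abundant in all libraries (9 of the 10 markers are in the table, with summed levels, mostly of Alb, of 43113 to 52586 FPKM in wild type and 41444 to 49024 in knockout). Of these 9, limma called 3 lower in knockout, Tat (log2 difference -1.27), Cps1 (-0.78) and Serpina1c (-0.77). Markers of other cells were also detected. The 10 Kupffer cell and macrophage markers summed to 255 to 272 FPKM in wild type and 286 to 414 in knockout, the highest in knockout replicate 2. They did not move together, since Vsig4 was called lower (log2 difference -0.45), Timd4 (-0.54) and Clec4f (-0.19) had values below 0 without a call, and Lyz2 had the largest value above 0 (0.85), also without a call. The 8 endothelial markers summed to 107 to 122 FPKM and 126 to 146 FPKM, and limma called Lyve1 (1.24), Pecam1 (0.50) and Eng (0.46) higher. The 8 stellate markers summed to 103 to 127 and 120 to 165, with Col1a1 called higher (1.48), the 6 cholangiocyte markers to 30.0 to 60.6 and 36.9 to 97.9, and the 10 lymphocyte markers to only 2.68 to 3.66 and 2.19 to 5.37. No marker of these lists was at 0 in all libraries. In such bulk RNA, a change in the number of cells of a type and a change in RNA per cell cannot be told apart, and the part of these shifts in the values below was not tested.

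No proteasome gene passed the test between the genotypes. Of the 39 genes, limma called 0 higher and 0 lower at an adjusted p under 0.05. Over all 10633 genes tested it called 6.9%, with 5.3% higher and 1.6% lower in knockout. At an unadjusted p under 0.05 it found 3 of the 39 genes, against 25.3% of all genes, and limma's voom on reads recovered from the FPKM values also called 0 and found 3. The share of higher genes among all calls was 76.8% on the deposited scale, 60.9% with median-of-ratios size factors and 64.5% with quantiles made equal.

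The differences were small as well as uncalled. The median log2 difference, knockout minus wild type on the log2(FPKM + 1) scale, was 0.027 over the 39 genes and 0.075 over all genes tested. The lowest was -0.14 (Psmc6) and the highest 0.37 (Psmd8). For 38 of 39 genes the difference was within 0.25 either way, as it was for 68.5% of all genes and for 69.0% of the 4372 genes at a mean level in the range of these genes without Psmb6. The 95% intervals lay within 0.5 either way for 38 of the 39 genes and within 1, or 2-fold, for 39 of 39. Among the genes of like level, 66.0% had intervals within 0.5. A 2-fold change on this scale therefore lies outside each of these intervals. For Psmb6, the lowest gene, the added 1 FPKM shrinks the difference, so its interval on FPKM itself is wider. An uncalled gene with an interval across 0 is not shown to be equal between the genotypes.

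**Figure D1:**
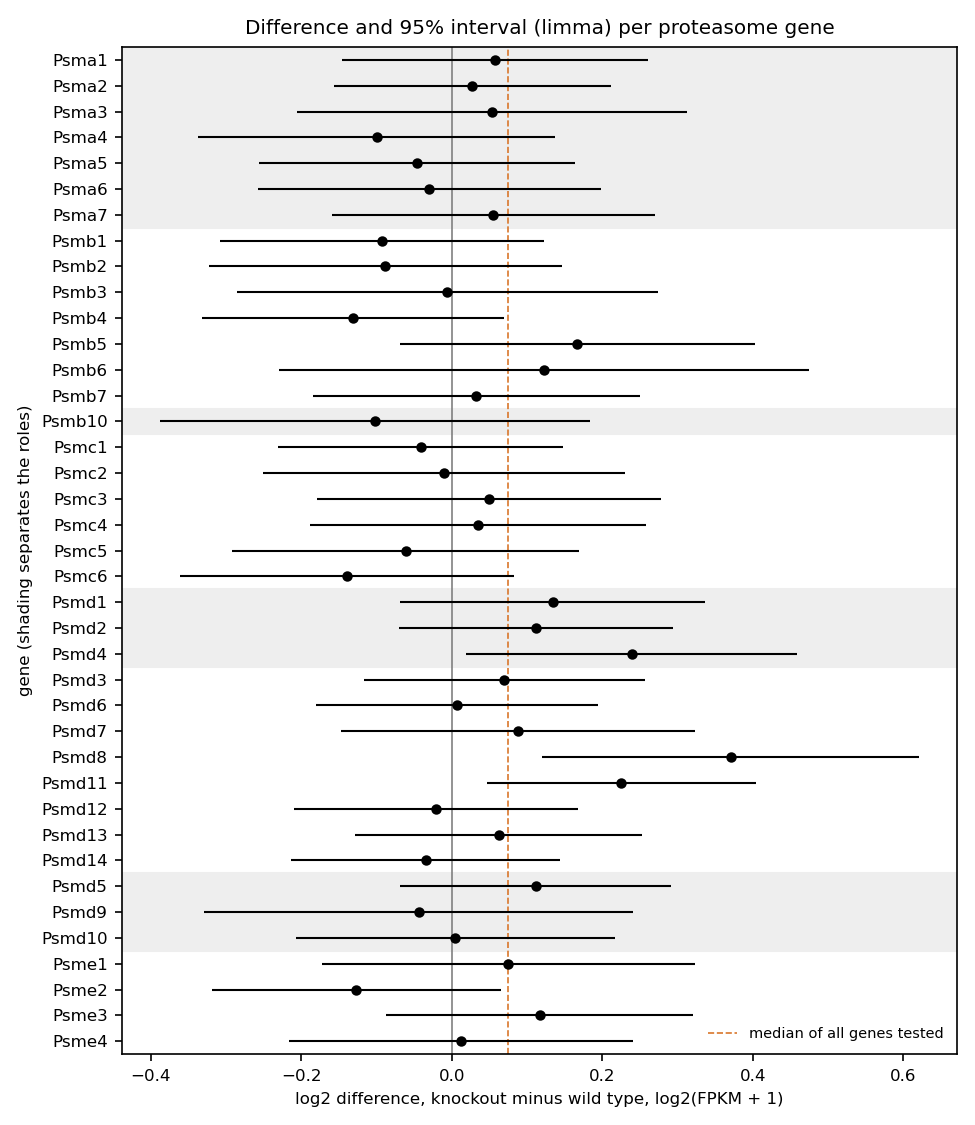
Log2 difference, knockout minus wild type on the log2(FPKM + 1) scale, for each of the 39 proteasome genes (points) with its 95% interval from limma (bars), n = 3 libraries per genotype. The intervals of 36 genes cross 0, and those of Psmd8, Psmd11 and Psmd4 lie above it without passing the adjusted threshold; the dashed line is the median of all genes tested, 0.075.

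**Figure D2:**
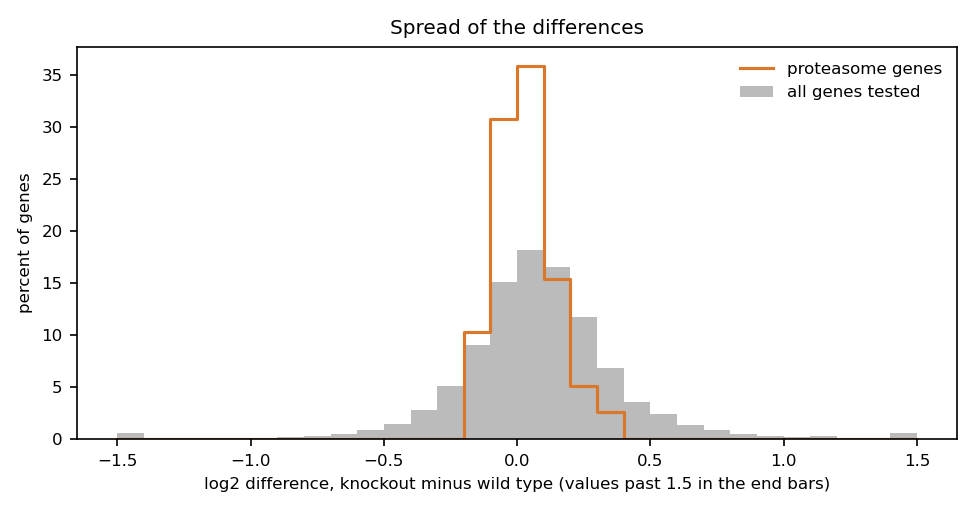
Share of genes (percent, vertical axis) by log2 difference, knockout minus wild type, in steps of 0.1, for all 10633 genes tested (gray bars) and the 39 proteasome genes (line). The proteasome genes run from -0.14 to 0.37, and 97.4% of them lie within 0.25, against 68.5% of all genes.

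Most of the 39 genes had wild-type means from 37.4 to 114 FPKM. In wild type, Psmb4 had the highest mean, at 140.4 ± 8.76 FPKM (SD, n = 3), and the genes from Psmb7 at 114 ± 10.05 FPKM down to Psmd14 at 37.4 ± 1.72 FPKM (SD, n = 3 each) made up most of the list. When the genes were ordered by wild-type mean, the ranges of neighbours overlapped in 32 of 38 pairs. Such an order sets genes of near means side by side, so this overlap does not show equal levels. The breaks came after Psmb4, Psmb7, Psma6, Psmd14, Psmd9 and Psmd10. Below the break after Psmd14 came the activators Psme2, Psme3 and Psme4, the core genes Psma3 and Psmb10, the chaperones and Psmb6. Replicates were close to each other. The median coefficient of variation within groups was 6.96% for the 39 genes, 11.7% for all genes tested and 9.20% for the genes of like level.

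**Figure D3:**
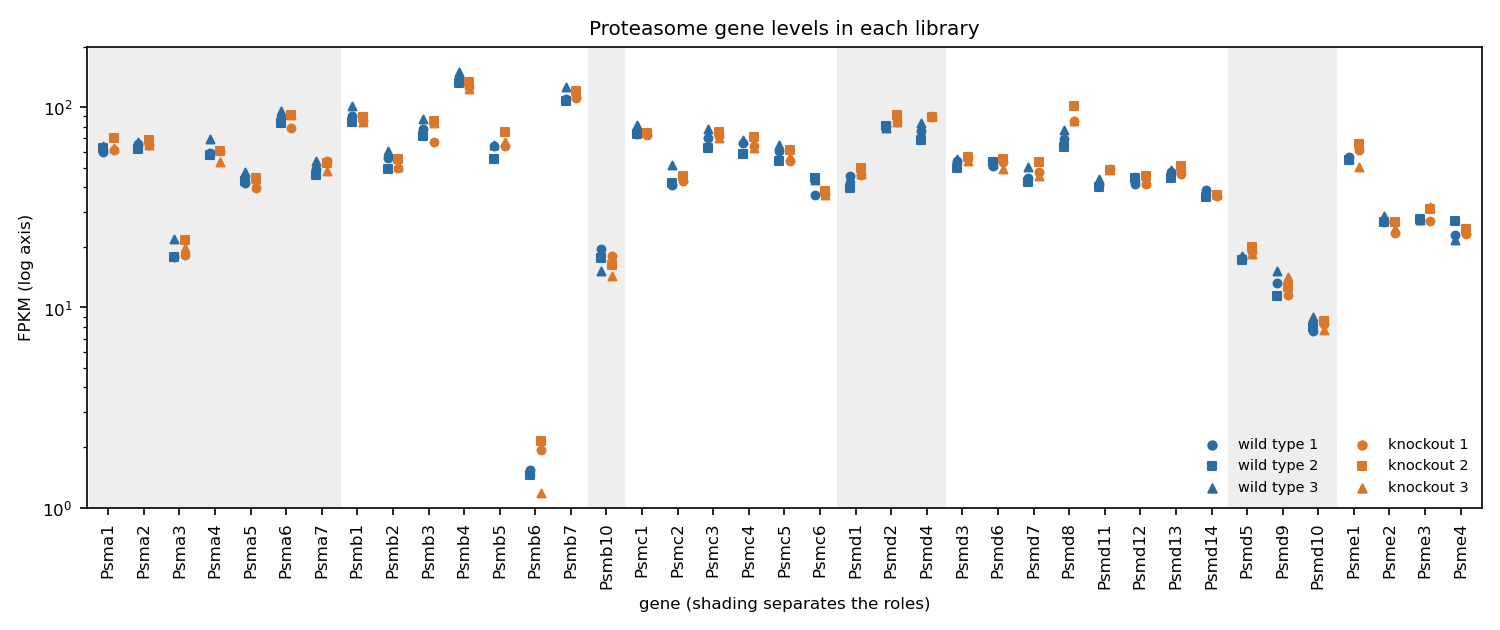
Level in FPKM (log axis) of each proteasome gene in the 3 wild-type (blue) and 3 knockout (orange) libraries; marker shapes give the replicate number and shading separates the roles from the alpha ring (left) to the other activators (right). Levels of the 2 genotypes overlap for 33 of 39 genes, and Psmb6 stands below the other genes at 1.19 to 2.15 FPKM.

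The alpha ring genes Psma1 to Psma7 had a median log2 difference of 0.027, with 4 above 0 and 3 below. Psma6, the highest of them, was at 88.1, 83.3 and 96.1 FPKM in the wild-type libraries against 79.2, 91.4 and 91.6 FPKM in the knockout libraries. Psma4 had the smallest p of the ring, with 59.4, 57.9 and 69.4 FPKM in the wild-type libraries against 60.5, 60.1 and 53.2 FPKM in the knockout libraries. Its log2 difference was -0.10 ± 0.102 (SE; limma, adjusted p = 0.584), and wild-type replicate 3 was the high library. Psma3 was the lowest of the ring, at 17.8, 17.8 and 22.0 FPKM in the wild-type libraries against 18.2, 21.7 and 19.8 FPKM in the knockout libraries. A processed pseudogene of Psma3, Gm13835, matches it at 100% over 23.4% of its transcript and had means of 29.5 FPKM (wild type) and 25.9 FPKM (knockout), so reads may be split and the level of Psma3 is uncertain. All 7 genes overlapped between the genotypes.

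The beta ring genes Psmb1 to Psmb7 had a median log2 difference of -0.0059, with 3 above 0 and 4 below. The catalytic subunits are Psmb5, which cuts after bulky hydrophobic residues, Psmb6, which cuts after acidic ones, and Psmb7, which cuts after basic ones. Psmb5 was at 63.9, 55.2 and 64.6 FPKM in the wild-type libraries against 64.2, 75.5 and 66.8 FPKM in the knockout libraries, so that knockout replicate 1 fell inside the wild-type range. Its log2 difference was 0.17 ± 0.102 (SE; limma, adjusted p = 0.345; 95% interval -0.07 to 0.40). Psmb7 was at 109.7, 107 and 126 FPKM in the wild-type libraries against 111, 121 and 117 FPKM in the knockout libraries, with a log2 difference of 0.033 and every knockout library inside the wild-type range. Psmb7 shares 405 exon bases with Nek6 on the opposite strand (24.3 FPKM in wild type), and whether the counting used strand was not given. Psmb4, a subunit without catalytic activity, was at 140.0, 132 and 149 FPKM in the wild-type libraries against 127, 133 and 124 FPKM in the knockout libraries. Knockout replicates 1 and 3 lay below the wild-type libraries and replicate 2 among them, and the interval of the difference ran from -0.33 to 0.07.

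Psmb6 was far below its partners. It was at 1.54, 1.45 and 1.53 FPKM in the wild-type libraries against 1.94, 2.15 and 1.19 FPKM in the knockout libraries, on 28 to 78 reads per library. The lowest of the other beta ring genes was between 25.6 and 42.3 times higher in the same library, on 587 reads or more. In the assembled complex, each beta ring without inducible subunits holds Psmb6 beside the same number of copies of each partner. A search of the GENCODE transcripts found no copy of Psmb6 with at least 95% identity over 50% of its transcript. The closest, Psmb6-ps2, matched at 92.1% over 89.97% and was listed at 0 in both groups. The value was low in all 6 libraries, and its cause was not tested.

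The inducible subunit Psmb10 replaces Psmb7 in the immunoproteasome, the form that interferon-gamma induces for antigen processing. Psmb10 was at 19.7, 17.8 and 15.2 FPKM in the wild-type libraries against 18.1, 16.4 and 14.3 FPKM in the knockout libraries. The ranges overlapped, with a log2 difference of -0.10 ± 0.123 (SE; limma, adjusted p = 0.651; 95% interval -0.39 to 0.18). Its usual partners were at or below 1.38 FPKM. Psmb8 was at 0.196, 1.38 and 0.297 FPKM in the wild-type libraries against 1.00, 0.140 and 0.140 FPKM in the knockout libraries, on 5 to 47 reads. Psmb9 did not exceed 0.357 FPKM in any library, on 3 to 14 reads.

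The ATPases of the base, Psmc1 to Psmc6, had a median log2 difference of -0.026, with 2 above 0 and 4 below. Psmc1, the highest, was at 73.6, 73.8 and 81.7 FPKM in the wild-type libraries against 72.8, 74.2 and 75.4 FPKM in the knockout libraries. Psmc6, the lowest, was at 36.4, 44.1 and 43.2 FPKM in the wild-type libraries against 36.8, 38.3 and 36.6 FPKM in the knockout libraries. Wild-type replicate 1 of Psmc6 lay with the knockout libraries, and the log2 difference was -0.14 ± 0.0957 (SE; limma, adjusted p = 0.402).

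Among the 39 genes, the other base subunits were the one group with every gene higher in each knockout library than in any wild-type library. They are Psmd1 and Psmd2, the large scaffold subunits, and Psmd4, a ubiquitin receptor. Adrm1, also a subunit of the base, lies outside the name pattern and overlapped between the genotypes. Psmd4 was at 76.4, 68.3 and 83.5 FPKM in the wild-type libraries against 88.9, 89.2 and 90.9 FPKM in the knockout libraries, a mean difference of 17.9% and a log2 difference of 0.24 ± 0.0947 (SE; limma, adjusted p = 0.168; 95% interval 0.02 to 0.46). Psmd2 was at 80.7, 80.2 and 78.7 FPKM in the wild-type libraries against 84.3, 91.1 and 84.0 FPKM in the knockout libraries, a log2 difference of 0.11 ± 0.0783 (SE; limma, adjusted p = 0.411). Psmd1 was at 45.2, 39.6 and 44.3 FPKM in the wild-type libraries against 45.7, 49.8 and 46.4 FPKM in the knockout libraries, a gap between groups of less than 1 FPKM. None of the 3 was called. These values are on the deposited scale. Over all genes tested, the median ratio to the wild-type mean was 0.992, 0.978 and 1.02 in the wild-type libraries. In the knockout libraries it was 1.03, 1.11 and 1.04. Over the alternatives the log2 difference ran from 0.038 to 0.19 for Psmd1, 0.015 to 0.17 for Psmd2 and 0.14 to 0.31 for Psmd4.

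Of the 8 lid genes, 6 were above 0 and 2 below, with a median log2 difference of 0.066. Psmd8, the last subunit to join the lid during assembly, had the largest difference of the 39 genes. It was at 69.1, 63.7 and 76.9 FPKM in the wild-type libraries against 85.4, 101 and 85.7 FPKM in the knockout libraries, on 1797 to 5352 reads. The groups did not overlap, the mean difference was 29.7%, and the log2 difference was 0.37 ± 0.108 (SE; limma, adjusted p = 0.0825; 95% interval 0.12 to 0.62). Psmd8 passed the threshold on the TPM scale, on which every library has the same sum (limma, adjusted p = 0.0462), and limma's adjusted p ran from 0.0462 to 0.238 over the alternatives.

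Psmd11, a scaffold subunit of the lid, was at 41.1, 40.2 and 43.9 FPKM in the wild-type libraries against 49.3, 48.6 and 48.8 FPKM in the knockout libraries, a log2 difference of 0.23 ± 0.0769 (SE; limma, adjusted p = 0.122). Its groups did not overlap, and the knockout mean was 48.9 ± 0.378 FPKM (SD, n = 3). It lies outside the rule for named genes and was chosen after its values were seen, because its unadjusted p was under 0.05. Psmd14, the enzyme that cuts the ubiquitin chain from the substrate, was the lowest lid gene, at 38.5, 35.5 and 38.4 FPKM in the wild-type libraries against 36.0, 36.6 and 36.9 FPKM in the knockout libraries, with an interval from -0.21 to 0.14. Psmd13 shares 342 exon bases with Sirt3 on the opposite strand, at 46.9 FPKM in wild type.

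On the deposited scale, 6 of 39 genes did not overlap between genotypes and were higher in knockout, against 23.4% of all genes tested. Lower without overlap were 0 of 39, against 7.81%. The 6 were Psmd1, Psmd2, Psmd4, Psmd8, Psmd11 and the chaperone Psmd5, and no gene of the core particle or of the ATPase ring was among them. As a share of the list, genes without overlap were no more frequent than among all genes tested.

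The upstream sequences of the genes with the largest differences are shown beside those of the catalytic subunits that hold the letters TGACNNNGC. RefSeq promoter windows (GRCm38.p6) matched 33 of the 39 genes, and the 250 bases before the start were searched on both strands. The core of the antioxidant response element, TGACNNNGC, which NRF1 and NRF2 are known to bind, was found for 5 of the 33 genes (15.2%) and for 14.3% of the 7896 tested genes with a window. The motif CCGGAAG of ETS factors was found for 11 of 33 (33.3%), 16.02% of tested genes and 7.83% of all 27025 genes. The GC box GGGCGG was found for 60.6%, 63.6% and 35.4%, and CCAAT for 36.4%, 40.2% and 37.5%. A match in a window is only a match of letters. The printed lines start 130 bases before the RefSeq start, lie upstream of the first exon, leave out bases that GENCODE places in an exon, and are printed 5′ to 3′ on the gene's strand. Capitals mark TGACNNNGC in Psmb5 and Psmb6 and CCGGAAG, read on either strand, in Psmd11 and Psmd4.
Psmd8, chr7:29180702-29180803, minus strand: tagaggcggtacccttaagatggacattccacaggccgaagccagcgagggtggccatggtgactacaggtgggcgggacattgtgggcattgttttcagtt
Psmd11, chr11:80428485-80428614, plus strand: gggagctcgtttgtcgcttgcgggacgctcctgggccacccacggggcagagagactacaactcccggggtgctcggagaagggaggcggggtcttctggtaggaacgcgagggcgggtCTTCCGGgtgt
Psmd4, chr3:95042615-95042744, minus strand: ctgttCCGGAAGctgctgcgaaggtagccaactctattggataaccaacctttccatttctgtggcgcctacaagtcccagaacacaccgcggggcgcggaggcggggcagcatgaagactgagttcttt
Psmb5, chr14:54618023-54618125, minus strand: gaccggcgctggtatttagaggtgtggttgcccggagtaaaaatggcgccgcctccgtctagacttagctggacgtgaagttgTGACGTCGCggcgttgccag
Psmb6, chr11:70525227-70525356, plus strand: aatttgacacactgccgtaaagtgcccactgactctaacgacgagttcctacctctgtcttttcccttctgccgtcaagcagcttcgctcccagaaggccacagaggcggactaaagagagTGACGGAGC
Psmd8, with the largest difference, holds neither marked motif in these bases, and Psmb5 and Psmb6 hold the letters TGACNNNGC within 50 bases of the start.

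Within a library, the core particle was lower relative to the regulatory particle in each knockout library than in any wild-type library. The summed FPKM of the 15 core genes divided by that of the 17 regulatory genes was 1.00, 0.994 and 1.02 in wild type and 0.925, 0.946 and 0.946 in knockout. The means were 1.01 ± 0.0137 and 0.939 ± 0.0122 (SD, n = 3 each), and the groups did not overlap. A ratio within a library does not move with a scaling of the whole library, and no p is given because the genes were chosen with earlier results known. Summed core levels themselves overlapped, at 940.2, 891 and 1025 FPKM in the wild-type libraries against 902, 987 and 926 FPKM in the knockout libraries, as did regulatory sums of 937, 897 and 1005 FPKM and 976, 1043 and 979 FPKM.

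The lower ratio was seen against Psmd1, Psmd2 and Psmd4 of the base and against the lid, but not against the ATPases. Core over base ATPases was 2.71, 2.66 and 2.65 in wild type and 2.64, 2.70 and 2.68 in knockout, which overlapped. Core over lid was 2.43, 2.38 and 2.50 in wild type and 2.17, 2.21 and 2.24 in knockout, and core over Psmd1, Psmd2 and Psmd4 was 4.65, 4.74 and 4.96 against 4.12, 4.29 and 4.18, both without overlap. Only 2 of the 8 lid genes, Psmd8 and Psmd11, did not overlap between the genotypes on their own. Core over lid without these 2 genes was not calculated. Without Psmd4, Psmd8 and Psmd11, a choice made after seeing the data, core over regulatory was 1.254, 1.2298 and 1.282 in wild type and 1.200, 1.227 and 1.2285 in knockout. The groups then all but met, at wild-type replicate 2 and knockout replicate 3.

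**Figure D4:**
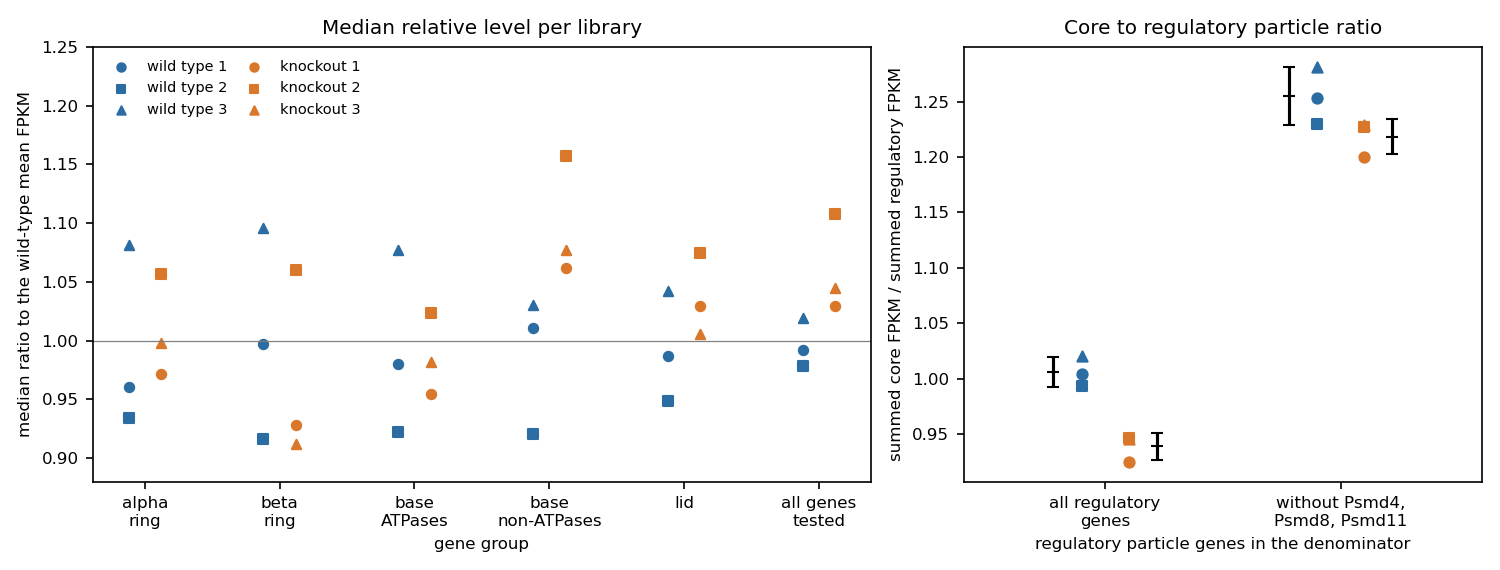
Left, median ratio of each gene group's FPKM to its wild-type mean in every library (blue wild type, orange knockout, shapes give replicates). Right, summed core over summed regulatory FPKM per library with mean and SD (bars, n = 3), on axes that do not start at 0; with all 17 regulatory genes the knockout libraries lie between 0.925 and 0.946 and the wild-type libraries between 0.994 and 1.02, and without Psmd4, Psmd8 and Psmd11 the gap nearly closes.

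The genes tended to be high in the same libraries of a group. Wild-type replicate 3 was the highest wild-type library for 29 of the 39 genes (74.4%, against 42.6% of all genes tested), and knockout replicate 2 was the highest knockout library for 29 (74.4%, against 50.3%). The median ratio to the wild-type mean over the 39 genes was 0.989, 0.939 and 1.06 for the wild-type libraries, and for the knockout libraries 0.984, 1.06 and 0.994. The range of the wild-type libraries thus took in that of the knockout libraries. Psmb10 went another way, with wild-type replicate 3 and knockout replicate 3 the lowest of their groups.

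The assembly chaperones of the regulatory particle, Psmd5, Psmd9 and Psmd10, were the lowest genes beside Psmb6 and Psmb10. Psmd5 was at 17.7, 17.3 and 18.1 FPKM in the wild-type libraries against 19.0, 20.1 and 18.5 FPKM in the knockout libraries, a log2 difference of 0.11 ± 0.0776 (SE; limma, adjusted p = 0.410), and the groups did not overlap. The difference ran from 0.018 to 0.17 over the alternatives. Psmd10, also known as gankyrin, was at 7.63, 7.97 and 8.93 FPKM in the wild-type libraries against 8.25, 8.60 and 7.75 FPKM in the knockout libraries.

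Among the activators that can replace the regulatory particle, Psme1 and Psme2 form the interferon-responsive ring PA28, Psme3 forms its nuclear counterpart, and Psme4 encodes PA200. Psme1 was at 56.7, 54.6 and 55.5 FPKM in the wild-type libraries against 60.9, 65.4 and 50.6 FPKM in the knockout libraries, so that the knockout libraries lay on both sides of the wild-type ones. Psme2 was at 26.6, 26.8 and 28.6 FPKM in the wild-type libraries against 23.7, 26.6 and 24.6 FPKM in the knockout libraries, a log2 difference of -0.13 ± 0.0830 (SE; limma, adjusted p = 0.380). Its copy Psme2b matches it at 99.4% over 82.5% of the transcript and was at 11.4 FPKM in wild type, so reads may be split between them and the level of Psme2 is uncertain. Psme4 was at 23.0, 27.0 and 21.7 FPKM in the wild-type libraries against 23.3, 24.7 and 24.04 FPKM in the knockout libraries. Near-identical copies (at least 95% identity over 50% of the transcript) were also found for Psma4, Psma5, Psmb3, Psmb5, Psmc1, Psmd2 and Psmd11, and those with a level in the table were at 3.93 FPKM or less in wild type.

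Around the proteasome, 2 of 60 tested genes of the same pathway were called, against 6.9% of all genes tested. Of 68 further genes listed (other subunits, cofactors, chaperones, regulators, ubiquitin, shuttles, peptidases, interferon and autophagy regulators), 60 were tested, 1 was higher and 1 was lower, with a median log2 difference of 0.14 beside 0.075 over all genes tested. The subunits with other names were not called. Adrm1, a ubiquitin receptor of the base, was at 30.0, 27.7 and 33.3 FPKM in the wild-type libraries against 32.2, 32.3 and 31.8 FPKM in the knockout libraries, with a near-identical copy at 1.16 FPKM. Shfm1, which encodes the small lid subunit also called Sem1, was at 32.1, 28.0 and 40.1 FPKM in the wild-type libraries against 26.9, 38.2 and 38.1 FPKM in the knockout libraries.

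Syvn1 rose. It encodes HRD1, the ubiquitin ligase that hands misfolded proteins of the endoplasmic reticulum to the proteasome and that also acts on NRF1. It was at 29.5, 49.5 and 44.2 FPKM in the wild-type libraries against 80.2, 91.1 and 70.8 FPKM in the knockout libraries. The groups did not overlap, and the log2 difference was 0.98 ± 0.190 (SE; limma, adjusted p = 0.0266). With no filter on low genes limma's adjusted p was 0.105 and the call was lost. Leaving out knockout replicate 1 (0.0564), knockout replicate 2 (0.105) or wild-type replicate 3 (0.0515) also ended it.

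Nfe2l1, the gene of NRF1, was at 45.2, 44.9 and 39.1 FPKM in the wild-type libraries against 56.1, 51.3 and 53.0 FPKM in the knockout libraries. The groups did not overlap, and the gene was not called (log2 difference 0.31 ± 0.0906, SE; limma, adjusted p = 0.0849). Other genes with the smallest p of their lists were also uncalled. Vcp, the segregase that extracts ubiquitin-tagged proteins, was at 93.9, 85.9 and 93.7 FPKM in the wild-type libraries against 109.9, 107 and 109 FPKM in the knockout libraries. Ube3c, a proteasome-bound ligase, was at 12.8, 13.1 and 13.0 FPKM in the wild-type libraries against 14.6, 16.6 and 16.4 FPKM in the knockout libraries. Both lay higher in each knockout library than in any wild-type library.

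Sqstm1, which encodes the autophagy receptor p62, was at 204, 221 and 269.9 FPKM in the wild-type libraries against 290.4, 330.4 and 311 FPKM in the knockout libraries, with a log2 difference of 0.43 ± 0.123 (SE; limma, adjusted p = 0.0799, not called; 0.0365 to 0.230 over the alternatives). It passed the threshold only on the TPM scale (0.0444), with array weights (0.0365) and without wild-type replicate 3 (0.0409). Psmg3, an assembly chaperone of the core, was at 9.77, 8.43 and 8.39 FPKM in the wild-type libraries against 10.4, 9.73 and 10.03 FPKM in the knockout libraries. Nln, a peptidase of short peptides, was at 10.03, 8.36 and 7.86 FPKM in the wild-type libraries against 10.6, 12.3 and 10.9 FPKM in the knockout libraries.

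**Figure D5:**
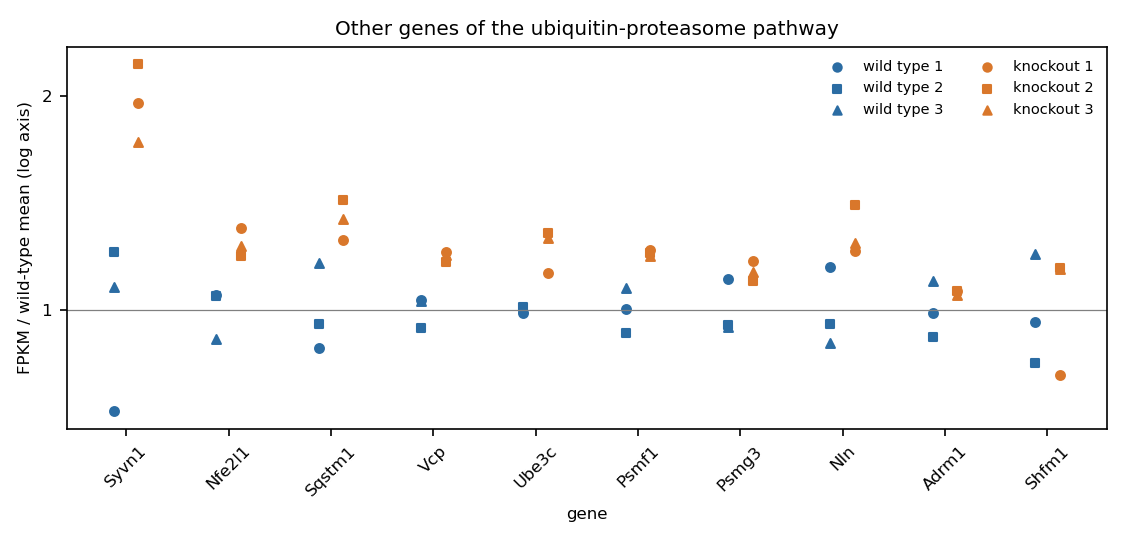
FPKM of 10 other pathway genes in every library, divided by the gene's wild-type mean (log axis; blue wild type, orange knockout, shapes give replicates; Psmf1, the inhibitor PI31, was chosen after its values were seen). Syvn1, Nfe2l1, Sqstm1, Vcp, Ube3c, Psmf1 and Nln lie above all wild-type libraries in each knockout library, with Syvn1 farthest from 1. Psmg3, Adrm1 and Shfm1 overlap between the genotypes.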

How the data were processed

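RNA-seq was done on 3 wild-type and 3 knockout libraries (RNA by Trizol, libraries from total RNA with an Illumina TruSeq kit, per the labels' protocols). The deposited values are FPKM per gene symbol, made by the authors. Bowtie 0.12.2, HISAT2 and the builds mm8 and mm10 are named in the submitters' processing notes; roles, annotation and the counting of multi-mapping reads were not given. Depth was recovered from FPKM steps: 99.8% of 17549 genes detected in 4 or more libraries came out whole within 0.05 reads, and totals, set from lengths of genes with 1 transcript, are estimates. Limma 3.58.1 in R 4.3.3 (eBayes with trend, two-sided) was fitted to log2(FPKM + 1) for all genes at a mean of at least 1 FPKM, with genotype as the only term and Benjamini-Hochberg adjustment over these genes. The smallest p of an exact permutation test in this design is 0.1. The fit was tested on simulated data. Positions and copies come from GENCODE vM21 (GRCm38, which corresponds to mm10). Members and lists were chosen with earlier results of these data known. By a written rule, the genes named were those with the smallest p and the highest and lowest mean in each role, the catalytic, inducible and PA28 subunits, and the called genes or the smallest p of each other list; Psmd11 and Psmf1 were added after their values were seen. Some genes of the other lists are counted but not reported here. The alternatives were another pseudocount, 2 filters, 3 scalings, 3 variance models, a replicate block, each library left out and, added later, voom on the recovered reads.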

Additional observations from a re-analysis of the deposited data

How the results depend on the processing

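Of the 39 proteasome genes, 0 were called in either direction under 16 of 17 alternatives, among them each library left out (0 to 0 higher, 0 to 0 lower) and voom. The exception was the TPM scale, with 1 higher gene, Psmd8, which is also the 1 regulatory particle gene called. After median-of-ratios scaling the median log2 difference was -0.069 over all 39 genes, beside -0.0067 over all genes tested. It was -0.10 for the core and -0.047 for the regulatory particle. With 1 library left out the median ranged from -0.0080 to 0.073 over all 39, from -0.065 to 0.054 for the core and from 0.020 to 0.090 for the regulatory particle. Over all genes, the number called higher, 564 as deposited, was 352 with median-of-ratios scaling, 371 with quantile normalization, 916 on the TPM scale, 88 with no filter and 280 with the replicate block, and 94 (without knockout replicate 2) to 422 with 1 library left out. The number called lower, 170 as deposited, was 58 with no filter and 54 to 119 with 1 library left out.

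For genes that were not called, the sign of a difference near 0 turned under some scalings. Under the median-of-ratios and quantile scalings respectively it was -0.013 and -0.0070 for Adrm1, -0.040 and -0.033 for Psma3, -0.083 and -0.077 for Psmd10, -0.082 and -0.075 for Psme4 and -0.055 and -0.044 for Shfm1. After median-of-ratios scaling it was -0.065 for Psmb7 and -0.022 for Psme1. On the TPM scale it was 0.024 for Psma6, 0.013 for Psmc1 and 0.019 for Psmd14, and with array weights 0.0030 for Psma6. With 1 library left out the values ran from -0.0064 to 0.15 for Psma3, -0.077 to 0.039 for Psma6, -0.011 to 0.10 for Psmb7, -0.067 to 0.0082 for Psmc1, -0.038 to 0.063 for Psmd10, -0.0025 to 0.18 for Psme1, -0.051 to 0.099 for Psme4 and -0.075 to 0.20 for Shfm1. The cause of these changes was not tested.

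With the replicate number of the titles as a block (replicate block), 0 of the 39 genes were called, and limma's adjusted p of Psmd8 was 0.155. Same-numbered libraries shared deviations from their group means with correlations of 0.17, -0.063 and 0.097. Wild-type replicates 1 and 3 correlated best with the knockout library of the same number, and wild-type replicate 2 with knockout replicate 3 (0.13). With so few libraries these correlations cannot decide whether the libraries were paired. Arrb1 lost its call with no filter (adjusted p = 0.117), with robust estimation (0.0769), without wild-type replicate 2 (0.0916) or 3 (0.0700) and without knockout replicate 1 (0.0596), 2 (0.1001) or 3 (0.0669). Psmb6, Psmb8 and Psmb9 rest on few reads, so their differences are uncertain. Psmb8 and Psmb9 lay below the filter and were not tested in the main fit.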
